A study of Homo sapiens with 10 samples.

Results

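The gene set holds *NR3C1*, which encodes the glucocorticoid receptor, and 9 genes known as its direct targets, *FKBP5*, *TSC22D3*, *PER1*, *ZBTB16*, *KLF9*, *SGK1*, *DUSP1*, *CRISPLD2* and *ERRFI1*. They were taken by symbol from general knowledge of the pathway, and all 10 were found among the 28265 symbols of the deposited count tables. Each of the 10 passed the filter of at least 5 counts in at least 2 libraries, which left 21014 genes for testing. The lowest value of any of them in a library was 29 counts, for *ZBTB16*.

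Expression was read by RNA-seq in sorted NKX2-1GFP+ cells of thyroid organoids, which had been differentiated from human embryonic stem cells (hESC). The source was 1 modified hESC line, ESIBIe003-A-6, in which GFP marks *NKX2-1* expression and doxycycline turns on *NKX2-1* and *PAX8* transgenes, so that no result was checked in a second line. There were 10 libraries, 2 biological replicates at each of days 16, 23, 31, 38 and 45, each from several pooled wells. Counted totals ran from 7247268 to 10333933 per library, so that the 3 counts taken as the floor of detection correspond to 0.29 to 0.414 CPM of these totals, a limit that covers counting error only. CPM is the count of a gene per total of its library, scaled to a common total, and all other CPM values carry TMM factors, which correct for differences in library composition.

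All groups had earlier been given Activin A and then doxycycline, which was withdrawn before day 16. All grew in medium with fetal bovine serum, whose own steroids were not measured. Cells of day 16 were in basal medium, and those of days 23 and 31 were given 8-br-cAMP at 300 µM, an analogue of cAMP that enters cells and stands in for TSH signalling. Cells of day 38 received 1 mU/ml hrTSH (recombinant human TSH) and 50 nM dexamethasone, a synthetic glucocorticoid, in place of the cAMP analogue. Cells of day 45 received the same with SB431542, which blocks the TGFβ receptor kinase, at 10 µM. Days 38 and 45 are called the dexamethasone days, with 4 libraries against the 6 of days 16, 23 and 31. The sample titles name cAMP at day 16 and leave dexamethasone out at day 45, where the study's methods were followed. Day 31 is titled cAMP although the published schedule changes the medium at day 30. The study's text starts SB431542 on day 38 or shortly before, but the day 38 title does not name it. Cells of day 31 may thus have had TSH and dexamethasone already, and those of day 38 SB431542. The titles were followed for both days, so that counting day 31 as before dexamethasone rests on its title. Dexamethasone came in together with TSH and with the loss of the cAMP analogue, and later in time, so that their parts in any difference cannot be told apart. Libraries of cells kept on cAMP to days 38 and 45 were not analysed here.

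The glucocorticoid receptor is a nuclear receptor that waits in the cytoplasm in a complex with HSP90 and its partners. A bound glucocorticoid releases it to the nucleus, where dimers bind glucocorticoid response elements, a pair of inverted hexamers spaced by a short gap, and raise transcription of nearby or distant genes. The receptor also lowers inflammatory genes by acting on NF-kB and AP-1. In thyroid cell culture, glucocorticoids are a usual additive of differentiation media.

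The response element was searched in GRCh38 as AGAACA, any 3 bases, TGTTCT, which is its own reverse complement, allowing 1 of the 12 fixed letters to differ. Within the transcribed spans of 9 members there were 7 matches in 697.4 kb, or 1.0 per 100 kb, against 0.525 per 100 kb over the spans of all tested genes that were placed. *ZBTB16* was not searched. Of the matches, 4 are printed: the exact one, the other match in that gene, the *TSC22D3* match closest to the start, and the *PER1* match, the 1 within 5000 bases of a start. They are given on the strand of the gene, with the element in capitals and 10 flanking bases in lower case on each side.
FKBP5, exact match: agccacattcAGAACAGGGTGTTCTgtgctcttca
FKBP5, 1 letter differs: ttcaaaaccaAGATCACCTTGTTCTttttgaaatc
TSC22D3, 1 letter differs: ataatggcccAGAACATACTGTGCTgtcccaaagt
PER1, 1 letter differs: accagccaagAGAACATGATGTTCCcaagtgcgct

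Coordinates are those of the printed stretches with their flanks. Distances run from the RefSeq start site used for the gene to the middle of the element. The exact *FKBP5* match (within chr6:35602072-35602106, minus strand) lies 126494 bases after the start site, in intron 5 of the 10 introns of the canonical transcript. The second *FKBP5* site (within chr6:35613600-35613634, minus strand) lies in the same intron, 114966 bases after the start. *TSC22D3* held 3 matches in intron 1, and the one shown is closest to the start (within chrX:107767834-107767868, minus strand, 8137 bases after it). The *PER1* site (within chr17:8154450-8154484, minus strand) lies 2063 bases before the RefSeq start, in an intron of a longer annotated transcript. *CRISPLD2* held 1 match in its first intron, while *NR3C1*, *KLF9*, *SGK1*, *DUSP1* and *ERRFI1* held none. *PER1* was the 1 member with a match within 5000 bases of the start, a window that held one in 3.75% of 14838 genes. A match is a description of letters, and binding was not measured.

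*NR3C1* itself was expressed on every day. It stood at 56.0 and 68.1 CPM on day 16, 50.5 and 48.9 on day 23, 59.8 and 49.7 on day 31, 69.4 and 59.4 on day 38, and 91.0 and 95.7 on day 45. Day 45 was above every other library, and the 4 earlier days overlapped each neighbour in the order of means (23, 31, 16, 38). Over all libraries the dexamethasone days were higher by 0.49 on the log2 scale (standard error 0.12, edgeR's quasi-likelihood test, adjusted p = 0.00147), where each group is the mean of its days. At the change of medium, from day 31 to day 38, the difference was 0.23, with a 95% interval from -0.14 to 0.61 (edgeR adjusted p = 0.468). The later step, to day 45, was 0.54 (standard error 0.18, edgeR adjusted p = 0.056), above the threshold of 0.05. With all libraries kept, it was called with DESeq2, library size alone, upper-quartile factors and the replicate number as a block, at 0.54 to 0.60. It was also called with only the 4 libraries compared, at 0.56. Without single libraries it ranged from 0.43 to 0.65, and it was called without either day 16 library (0.53 and 0.54). With day 38 as the only dexamethasone day, the pooled difference was 0.22 and did not pass (edgeR adjusted p = 0.347).

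Levels of different genes are compared per kb of canonical transcript. On this scale the receptor averaged 8.19 CPM per kb before dexamethasone and 11.6 with it. The mineralocorticoid receptor *NR3C2*, which also binds glucocorticoids, went the other way, from 13.5 to 7.26 CPM per kb. The progesterone receptor *PGR* averaged 0.219 and 0.163 CPM per kb. Before dexamethasone every library had more *NR3C2* per kb (10.5 to 15.4) than the highest *NR3C1* value (10.0). This rested on the transcript lengths used, 6778 bases for *NR3C1* and 5792 for *NR3C2*. In CPM, day 16 replicate 2 had 68.1 for *NR3C1* and 60.7 for *NR3C2*, while the other libraries before dexamethasone had more *NR3C2*. On the dexamethasone days every library had less *NR3C2* per kb (6.90 to 8.13) than the lowest *NR3C1* value (8.76).

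*NR3C2* stood at 75.6 and 60.7 CPM on day 16, 89.2 and 81.7 on day 23, 74.2 and 88.2 on day 31, 40.0 and 40.9 on day 38, and 40.4 and 47.1 on day 45. Every library of the dexamethasone days was below every earlier one. The change from day 31 to day 38 was -1.01 on the log2 scale (standard error 0.19, edgeR adjusted p = 0.00018). No difference was called from day 38 to day 45, at 0.12 (standard error 0.19, edgeR adjusted p = 0.796). Of these 2 related receptors, *NR3C2* was lower over the pooled dexamethasone days, at -0.89 (standard error 0.13, edgeR adjusted p = 5.85e-07), and *PGR* was not called, at -0.79 (edgeR adjusted p = 0.425).

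**Figure D1:**
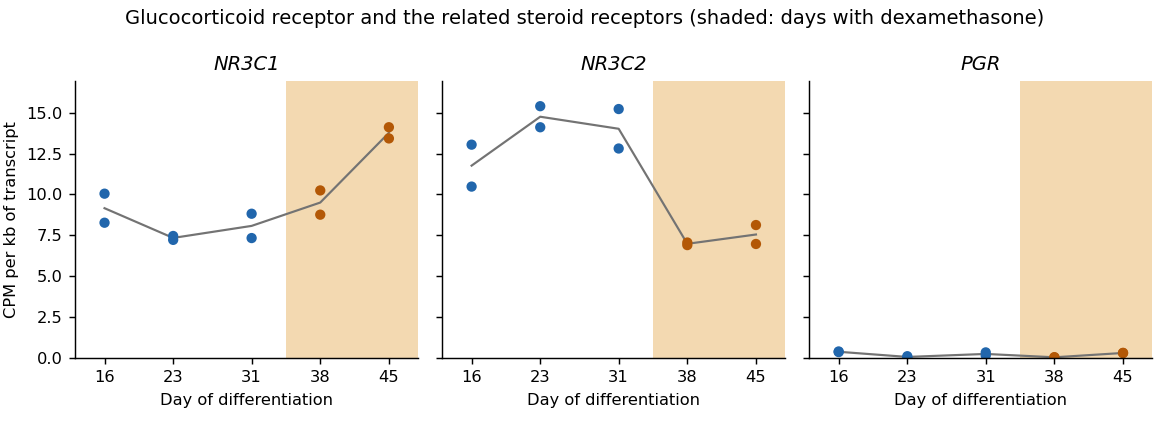
CPM per kb of transcript for the glucocorticoid receptor and 2 related steroid receptors by day. Points are libraries, lines join day means and shading marks the dexamethasone days, on which *NR3C1* averaged 11.6 and *NR3C2* 7.26 CPM per kb.

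Of the 10 genes, 8 were called higher and 2 lower on the dexamethasone days at an adjusted p under 0.05, the receptor included. Over all tested genes the shares called were 17.5% higher and 13.8% lower. This balance turned with scaling: without TMM factors, on library size alone, 2724 genes were higher and 4257 lower in place of 3687 and 2903, and at day 38 against 31 they were 1183 and 2368 in place of 1850 and 1310. The median log2 difference of the 10 was 1.12 and that of all genes 0.02. In 5 genes, *FKBP5*, *TSC22D3*, *KLF9*, *SGK1* and *ERRFI1*, every dexamethasone library was above every other library, and no member had the opposite. Among all genes 8.31% were higher without overlap and 5.65% lower without overlap. The members were picked with earlier results of these data known, so that these counts describe them and test nothing about the set.

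**Figure D2:**
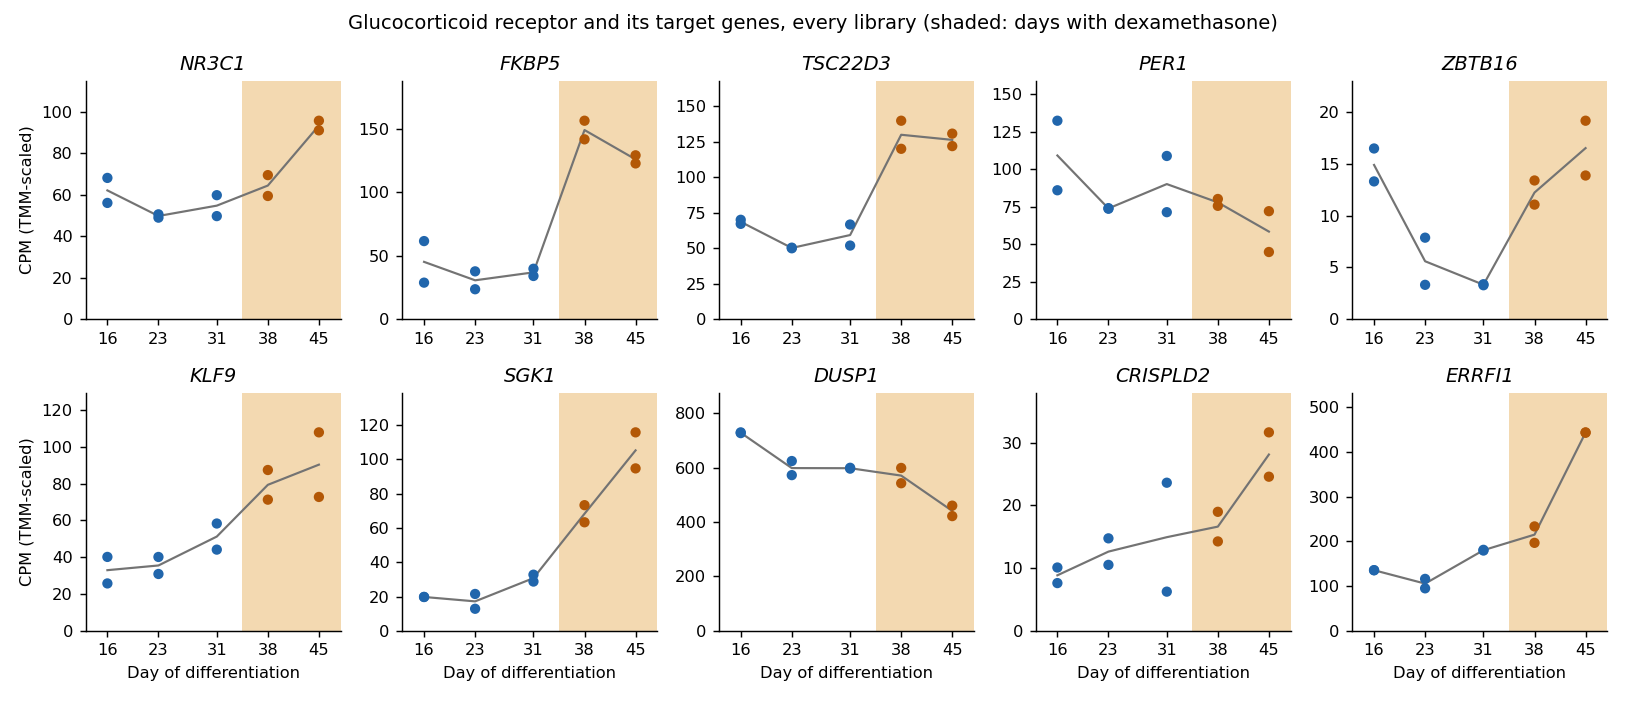
TMM-scaled CPM of the 10 genes by day, each panel with its own axis from 0. Points are libraries (blue without and brown with dexamethasone), lines join day means, and *FKBP5*, *TSC22D3*, *KLF9*, *SGK1* and *ERRFI1* do not overlap between the shaded and unshaded days.

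*FKBP5* encodes a co-chaperone of the receptor complex that lowers hormone binding, the classical negative feedback of this pathway. It stood at 61.6 and 28.8 CPM on day 16, 23.6 and 37.7 on day 23, 34.1 and 39.8 on day 31, 142 and 157 on day 38, and 123 and 129 on day 45. The 4 dexamethasone libraries were at 123 or more and the other 6 at 61.6 or less, and days 38 and 45 did not overlap. At the change of medium it rose 4.04-fold (95% interval 2.91 to 5.62), or 2.02 on the log2 scale (standard error 0.23, edgeR adjusted p = 3.98e-08). This change was exceeded by 2.39% of the 13115 genes with a mean of at least 5 CPM. No difference was called from day 38 to day 45, at -0.24 with a 95% interval from -0.69 to 0.21 (edgeR adjusted p = 0.581). The day 16 libraries differed by more than any other pair of this gene, and the change from day 16 to day 23 was -0.56 with both, 0.10 without replicate 1 and -1.01 without replicate 2 of day 16. That change was not called with both (edgeR adjusted p = 0.133), but it was without day 16 replicate 2 and without day 23 replicate 2, at -0.94. It was also called with all libraries kept and no low-count filter (-0.54, edgeR adjusted p = 0.0461) or the replicate number as a block (-0.56, edgeR adjusted p = 0.0327).

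*TSC22D3* encodes GILZ, a leucine zipper protein that mediates part of the anti-inflammatory action of glucocorticoids. It stood at 67.2 and 70.1 CPM on day 16, 49.97 and 50.4 on day 23, 66.7 and 51.9 on day 31, 140 and 120 on day 38, and 131 and 122 on day 45. The groups were apart by a wide gap, while the 2 dexamethasone days overlapped. The rise from day 31 to day 38 was 2.19-fold (95% interval 1.73 to 2.78), or 1.13 on the log2 scale (standard error 0.17, edgeR adjusted p = 4.9e-06). It was followed by a difference of -0.04 (95% interval -0.38 to 0.29) to day 45. With DESeq2, library size alone and upper-quartile scaling that difference was 0.0036, 0.013 and 0.019, so that its sign is not fixed.

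*SGK1* encodes a serum and glucocorticoid regulated kinase that controls ion channels and transporters. Its values were 19.8 and 19.7 CPM on day 16, 12.9 and 21.5 on day 23, 32.7 and 28.7 on day 31, 73.3 and 63.3 on day 38, and 116 and 94.8 on day 45. Days 31, 38 and 45 each lay above the day before without overlap. The step from day 31 to day 38 was 2.22-fold (95% interval 1.61 to 3.06; edgeR adjusted p = 0.000305). It was preceded by a rise of 0.84 on the log2 scale from day 23 to day 31, before dexamethasone by the sample titles (standard error 0.24, edgeR adjusted p = 0.0483). The step to day 45 was 0.62 (95% interval 0.18 to 1.07, edgeR adjusted p = 0.0635), and its call depended on the setting. It was called without any 1 of the 4 libraries of days 16 and 23, at 0.61 to 0.62, and at 0.61 to 0.68 with DESeq2, library size alone, upper-quartile factors, no low-count filter, the replicate number as a block or only the 4 libraries compared. Without 1 library of days 38 or 45 it was not called, at 0.47 to 0.76 (edgeR adjusted p up to 0.43). The earlier rise was lost without either day 31 library, at 0.74 without replicate 1 and 0.92 without replicate 2, without day 23 replicate 1, at 0.52, and without any 1 library of days 38 and 45, at 0.84.

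*KLF9*, a zinc finger repressor of transcription, stood at 25.7 and 40.1 CPM on day 16, 40.1 and 30.9 on day 23, 44.1 and 58.3 on day 31, 87.4 and 71.2 on day 38, and 72.7 and 108 on day 45. Neither day 16 and 23 nor day 38 and 45 were apart, and day 31 lay between. The pooled difference was 1.11 on the log2 scale (standard error 0.14, edgeR adjusted p = 1.13e-07). The step from day 31 to day 38 was 0.63 (95% interval 0.18 to 1.09, edgeR adjusted p = 0.0532). This passed the threshold without day 16 replicate 1 (0.62), day 16 replicate 2 (0.63) or day 45 replicate 1 (0.63). Without day 31 replicate 1 it was 0.44 and without day 38 replicate 1 it was 0.48, neither called (edgeR adjusted p = 0.41 and 0.394). It was called with the replicate number as a block (edgeR adjusted p = 0.0126), with no low-count filter (edgeR adjusted p = 0.0203) and with only the 4 libraries of both days (edgeR adjusted p = 0.0229).

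*ZBTB16* encodes PLZF, a transcriptional repressor that glucocorticoids induce strongly in many cell types. It stood at 16.5 and 13.3 CPM on day 16, 7.87 and 3.31 on day 23, 3.27 and 3.37 on day 31, 13.4 and 11.1 on day 38, and 19.2 and 13.9 on day 45. Both days 38 and 45 overlapped day 16 and lay above days 23 and 31. The rise from day 31 to day 38 was 3.67-fold (95% interval 1.88 to 7.15; log2 1.88, standard error 0.47, edgeR adjusted p = 0.00469). It was not called without day 31 replicate 1, at 1.85 (edgeR adjusted p = 0.0505), or without day 38 replicate 1, at 1.73 (edgeR adjusted p = 0.0598). The pooled difference of 1.12 (standard error 0.29, edgeR adjusted p = 0.00246) was 0.64 and not called when days 16 and 23 alone were the reference (edgeR adjusted p = 0.137). It was 0.91 and not called with day 38 as the only dexamethasone day (edgeR adjusted p = 0.0668).

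*ERRFI1* encodes MIG6, an inhibitor of the EGF receptor. It stood at 135.5 CPM in both libraries of day 16, 116 and 94.98 on day 23, 179.5 and 181 on day 31, 233.5 and 197 on day 38, and 443 and 444 on day 45. Its days were all apart, in the order 23, 16, 31, 38 and 45. The step at the change of medium was 0.26 on the log2 scale (95% interval -0.02 to 0.53, edgeR adjusted p = 0.238), and the step to day 45, on which SB431542 was present, was 1.04 (standard error 0.14, edgeR adjusted p = 7.47e-07). The rise from day 23 to day 31, without dexamethasone by the sample titles, was 0.77 (standard error 0.14, edgeR adjusted p = 0.000566). It was 0.63 and not called without day 23 replicate 2.

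*CRISPLD2*, which encodes a secreted protein that binds endotoxin, was low and variable. It stood at 7.61 and 10.1 CPM on day 16, 14.7 and 10.5 on day 23, 6.24 and 23.6 on day 31, 14.3 and 19.0 on day 38, and 31.6 and 24.6 on day 45. The 2 libraries of day 31 spanned all of days 16, 23 and 38. The pooled difference was 0.87 (standard error 0.26, edgeR adjusted p = 0.0106). The call was lost without day 38 replicate 2, at 0.75 (edgeR adjusted p = 0.0668), or day 45 replicate 1, at 0.77 (edgeR adjusted p = 0.0601). With day 38 as the only dexamethasone day it was 0.49 and not called (edgeR adjusted p = 0.346). The step from day 31 to day 38 was 0.16 with a 95% interval from -0.68 to 1.00, and without TMM factors, on library size alone, it was -0.05.

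*PER1*, a clock gene, and *DUSP1*, a phosphatase that switches off MAP kinases, are the members that were lower on the dexamethasone days. *DUSP1* was the most abundant of the 10 per kb, with 318.5 CPM per kb before dexamethasone and 251 with it. It stood at 726.5 and 729 CPM on day 16, 572 and 624 on day 23, 596 and 599 on day 31, 598.5 and 542 on day 38, and 460 and 421.5 on day 45. Days 23, 31 and 38 overlapped, with day 16 above and day 45 below all of them. The pooled difference was -0.35 (standard error 0.07, edgeR adjusted p = 0.000325), and from day 31 to day 38 it was -0.07 (95% interval -0.30 to 0.16, edgeR adjusted p = 0.78). From day 38 to day 45 it fell by 0.37 (standard error 0.11, edgeR adjusted p = 0.0276), which was not called without day 38 replicate 1 (-0.30), day 38 replicate 2 (-0.44) or day 45 replicate 2 (-0.31). It was not called on library size alone (-0.32) or with upper-quartile factors (-0.31) either.

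*PER1* stood at 132 and 85.9 CPM on day 16, 74.0 and 73.6 on day 23, 71.3 and 109 on day 31, 80.1 and 75.6 on day 38, and 71.99 and 44.8 on day 45. The libraries of day 31 spanned those of days 23 and 38 and day 45 replicate 1, and they overlapped day 16. The lowest library was day 45 replicate 2. The pooled difference was -0.42 (standard error 0.14, edgeR adjusted p = 0.0189). It was not called without day 16 replicate 1 (-0.32), day 31 replicate 2 (-0.32), day 38 replicate 2 (-0.40) or day 45 replicate 2 (-0.26). From day 31 to day 38 it was -0.21, with a 95% interval from -0.64 to 0.22 (edgeR adjusted p = 0.59). With day 38 as the only dexamethasone day neither *PER1* (-0.21) nor *DUSP1* (-0.16) was called.

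Both genes are also known to respond to cAMP through the factor CREB, and the cAMP analogue left the medium before day 38. Its part in their levels was not tested. Both had their highest day mean on day 16, in basal medium without the analogue, and when the analogue came in, from day 16 to day 23, they differed by -0.28 and -0.56 (*DUSP1* and *PER1*, edgeR adjusted p = 0.112 and 0.083). Whether these were called depended on the setting. *DUSP1* was called lower with DESeq2 (adjusted p = 0.0162), and *PER1* with no low-count filter (edgeR adjusted p = 0.0274), with the replicate number as a block (edgeR adjusted p = 0.022) and without day 16 replicate 2 (-0.84, edgeR adjusted p = 0.012), with a range from -0.84 to -0.21 over omitted libraries. The CREB site TGACGTCA was found in 1 of the 9 RefSeq promoters (250 bases before the start, GRCh38.p14) that matched a member, that of *DUSP1*, and in 2.68% of the promoters of 14838 tested genes. *ZBTB16* had no entry. The stretch that holds it is shown for that reason, on the strand of the gene (chr5:172771296-172771370, minus strand), with the site and the shorter core TGACG or its complement CGTCA in capitals. The core, which the full site contains, was in 30.2% of all promoters.
DUSP1 promoter: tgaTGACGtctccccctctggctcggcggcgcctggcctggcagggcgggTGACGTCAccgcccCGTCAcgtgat
None of the 9 promoters held the glucocorticoid response element, which 0.101% of all promoters did.

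Read by comparison, 4 of the 10 were called higher from day 31 to day 38 (*FKBP5*, *TSC22D3*, *ZBTB16* and *SGK1*) and 0 lower, where 8.8% of all genes were called higher and 6.23% lower. With *KLF9* it was 5 under the 3 settings named above. There the 1850 higher among all genes became 2036 (block), 1955 of 24177 (no filter) and 2186 of 18801 (4 libraries). The member count also moved without some single libraries. The median difference of the 10 members was 0.44 against 0.00 for all genes. From day 38 to day 45, 1 was called higher (*ERRFI1*) and 1 lower (*DUSP1*), with 4.85% and 6.35% of all genes. From day 16 to day 23, when the cAMP analogue came in, 0 were called higher and 1 lower, *ZBTB16* at -1.41 (standard error 0.46, edgeR adjusted p = 0.0406), against 5.6% and 5.33% of all genes. This call was lost without day 16 replicate 1 (-1.23), day 16 replicate 2 (-1.56), day 23 replicate 2 (-0.92) or either day 38 library (-1.41). From day 23 to day 31, 2 were called higher (*ERRFI1* and *SGK1*) and 0 lower, against 1.58% and 0.666% of all genes. The comparisons of neighbouring days share a day, so that their values are set side by side only.

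**Figure D3:**
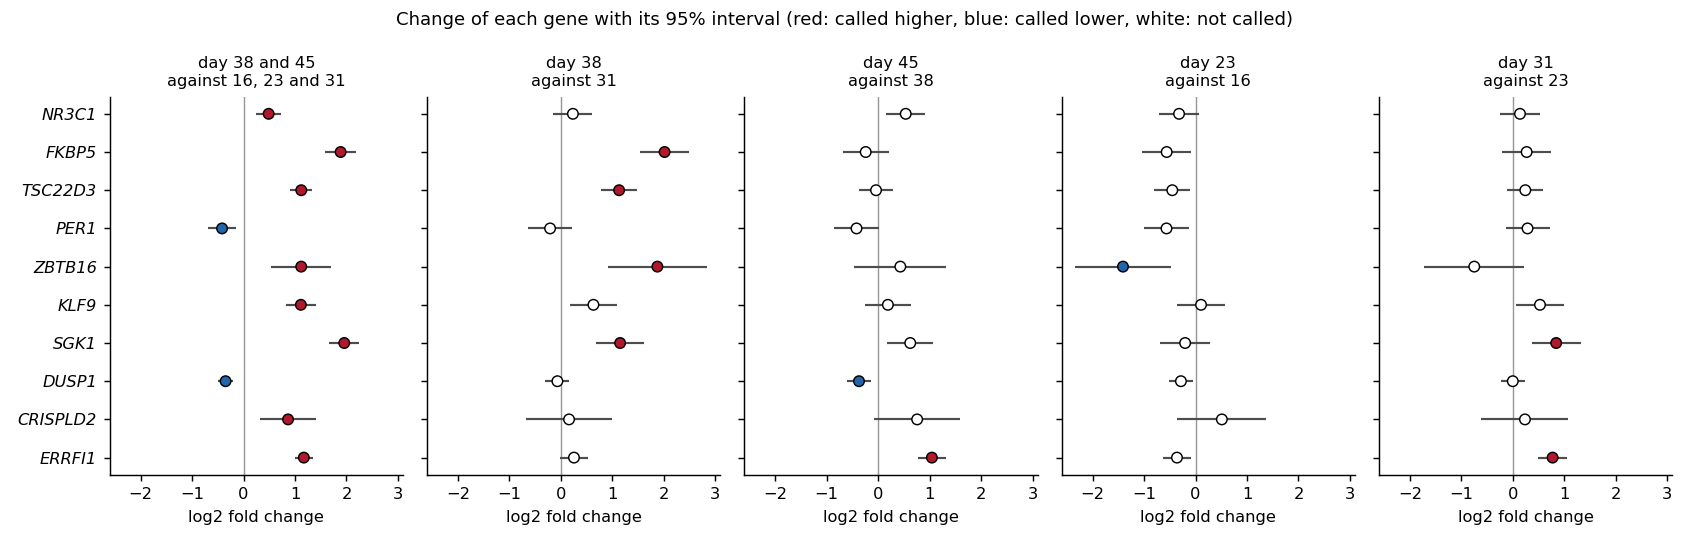
log2 fold changes of the 10 genes in the pooled comparison and the 4 comparisons of neighbouring days, with 95% intervals. Red points were called higher, blue lower and white not called, and at day 38 against 31 the called genes are *FKBP5*, *TSC22D3*, *ZBTB16* and *SGK1*.

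*FKBP5* and *TSC22D3* reached their level by day 38 and differed little between the dexamethasone days, with a Pearson correlation of 0.922 between their log2 CPM over the 10 libraries. *SGK1* and *ERRFI1*, which were also higher at day 31 than at day 23, had a correlation of 0.915, but *SGK1* correlated nearly as highly with *TSC22D3* (0.91) and *FKBP5* (0.892), so that these 4 do not fall into separate pairs. The correlation of *PER1* and *DUSP1* was 0.775. These libraries share days and media, so the correlations describe the time course. Outside the set, the 5 genes most like *FKBP5* among 13105 with a mean of at least 5 CPM were *NPPC* (r = 0.982), *GALNT17* (0.976), *TBILA* (0.973), *BLNK* (0.973) and *LGALS1* (0.971). *NPPC* went from a mean of 0.37 CPM to 13.9 CPM with dexamethasone. Those most like *NR3C1* were *ZFAND5* (0.967), *LRIF1* (0.964), *HOMER1* (0.964), *BLZF1* (0.959) and *AK6* (0.959).

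Among the 8 chaperones of the receptor complex, 3 were higher on the dexamethasone days, *HSP90AA1*, *PTGES3* (which encodes p23) and *HSPA8*, and 0 lower, with a median of 0.04, beside 17.5% higher and 13.8% lower among all genes. From day 31 to day 38, however, 0 were higher and 5 lower, with a median of -0.35, beside 8.8% and 6.23% of all genes. *HSP90AA1*, the inducible form of HSP90, stood at 974.5 and 881.5 CPM on day 31, 719.5 and 707.5 on day 38, and 1499 and 1696 on day 45, so that the dexamethasone days lay on either side of day 31. *FKBP4*, which encodes FKBP52, the partner that competes with the *FKBP5* product for the complex and favours hormone binding, stood at 80.2 and 62.7 CPM on day 31, 46.1 and 44.4 on day 38, and 70.1 and 59.6 on day 45. It fell by 0.66 from day 31 to day 38 (standard error 0.19, edgeR adjusted p = 0.015) while *FKBP5* rose. On day 16, however, *FKBP4* stood at 43.6 and 49.4 CPM, which overlapped day 38, and on day 23 at 74.7 and 72.7. Over the pooled dexamethasone days it was not called, at -0.21 (standard error 0.12, edgeR adjusted p = 0.217). Per kb, *FKBP4* averaged 17.2 before and 14.8 CPM with dexamethasone, and *FKBP5* 10.0 and 36.7.

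Of the 10 cofactors, 0 were higher and 4 lower on the dexamethasone days, the coactivators *NCOA1*, *NCOA2* and *CREBBP* and the corepressor *NRIP1*, with a median of -0.18, beside the same 17.5% and 13.8% of all genes. *NCOA2*, which encodes GRIP1, fell by 0.76 (standard error 0.09, edgeR adjusted p = 1.41e-08). Among the 5 genes of steroid metabolism and export, 1 was higher in the pooled comparison, the drug and steroid exporter *ABCB1*, and 0 lower, where 17.5% of all genes were higher. *ABCB1* stood at 0 to 3.03 CPM before dexamethasone and at 4.97, 0.698, 6.68 and 22.2 with it, so that the groups overlapped. None of the 5 was called from day 31 to day 38. *HSD11B1*, which regenerates active cortisol, reached at most 1.28 CPM in any library. *HSD11B2*, which inactivates cortisol, stood between 7.20 and 26.6 CPM before dexamethasone and between 10.3 and 13.2 with it, with a difference of -0.04 (standard error 0.29, edgeR adjusted p = 0.963).

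A further list of 25 genes known to be induced by glucocorticoids held 17 called higher and 2 lower, *PDK4* and *RASD1*, with a median of 1.27, beside 17.5% higher and 13.8% lower among all genes. *CDKN1C*, which encodes the cell cycle inhibitor p57, stood at 51.5 and 54.6 CPM on day 31, 288.5 and 249.2 on day 38, and 233.5 and 215 on day 45. It rose by 2.34 from day 31 to day 38 (standard error 0.16, edgeR adjusted p = 1.43e-13). *DDIT4*, which encodes the mTOR inhibitor REDD1, stood at 39.8 and 21.2 CPM on day 16 and 7.65 and 5.72 on day 23. It rose from 9.62 and 7.79 on day 31 to 113 and 93.2 on day 38. On day 45 it stood at 25.4 and 12.8, which overlapped day 16. The fall from day 38 was 2.45 (standard error 0.30, edgeR adjusted p = 3.52e-07). *PDK4*, a kinase that restrains glucose oxidation, stood at 40.6 and 43.7 CPM on day 16 and 132.6 and 131.8 on day 23. It fell from 100.4 and 96.8 on day 31 to 45.2 and 44.8 on day 38, near day 16. On day 45 it stood at 96.5 and 81.0.

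From day 31 to day 38, 12 of these 25 were called higher and 3 lower, with a median of 0.78, beside 8.8% and 6.23% of all genes. At day 31 against 23, before dexamethasone by the sample titles, 8 were already called higher and 0 lower, with a median of 0.68, beside 1.58% and 0.666%. Of these, *NFKBIA* and *TNFAIP3*, which hold back NF-kB, are also induced by NF-kB itself. *TNFAIP3* stood at 14.02 and 22.3 CPM on day 31, 60.0 and 59.0 on day 38, and 300.4 and 303 on day 45. From day 38 to day 45, 16 were higher and 2 lower, beside 4.85% and 6.35% of all genes. *RHOB*, a small GTPase, rose by 0.53 (standard error 0.13, edgeR adjusted p = 0.00437).

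**Figure D4:**
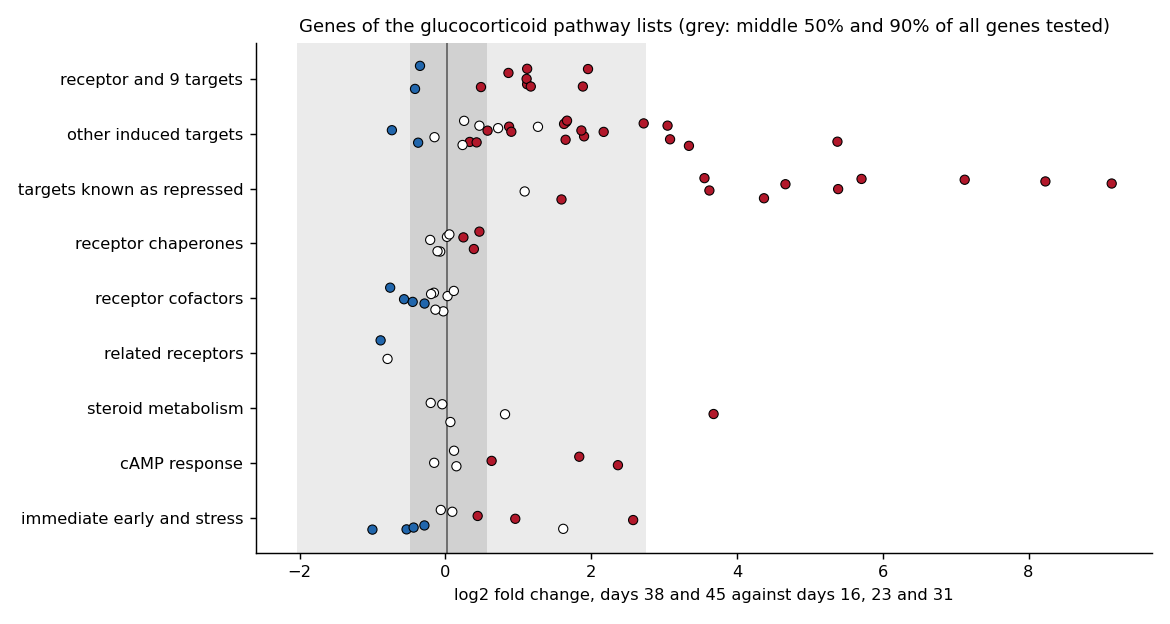
log2 fold changes of list genes, dexamethasone days against days 16, 23 and 31. Each point is a gene (red called higher, blue lower, white not called), grey bands hold the middle 50% and 90% of the 21014 tested genes, and 10 of the 11 genes known as repressed by glucocorticoids are red.

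Most listed genes that glucocorticoids are known to repress were higher on the dexamethasone days than on the earlier days. Of 11, 10 were called higher on the dexamethasone days and 0 lower, beside 17.5% and 13.8% of all genes, and from day 31 to day 38 alone 8 were called higher and 0 lower, beside 8.8% and 6.23%. At day 31 against 23, before the agent came in by the sample titles, 5 were called higher and 0 lower, with a median of 1.72, beside 1.58% and 0.666%. Their summed level ran from 34.1 to 123 CPM in the 6 libraries without dexamethasone, was 580 and 516 on day 38, and 2097 and 1943 on day 45. *CXCL8*, which encodes interleukin 8, stood at 6.24 and 5.24 CPM on day 31, 121 and 82.4 on day 38, and 638 and 543 on day 45. *CCL2*, a monocyte chemokine, stood at 3.27 and 3.26, then 49.0 and 55.4, then 74.9 and 81.6 CPM on those days. *PTGS2*, which encodes COX-2, rose by 3.71 from day 31 to day 38 (standard error 0.28, edgeR adjusted p = 1.98e-12). These genes are NF-kB targets as well. Cells of the same days without dexamethasone were not analysed here, so that repression by the agent was not tested. With such cells, the study reports lower inflammation markers in the medium with hrTSH and dexamethasone than under cAMP. The rise given here is against earlier days only.

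Genes that follow cAMP and handling stress were set beside the members, since *PER1*, *DUSP1* and *SGK1* answer to such signals too. Of 7 cAMP response genes, 6 were tested and 3 were higher and 0 lower on the dexamethasone days (*NR4A2*, *NR4A3* and *PDE4B*), beside 17.5% and 13.8% of all genes, while *SIK1* was at 0 in all 10 libraries. At the change of medium, where 8.8% of all genes were higher and 6.23% lower, 2 of the 6 were higher (*NR4A2* and *PDE4B*) and 1 lower, *NR4A1* at -0.69 (edgeR adjusted p = 0.00252), and *NR4A3* was not called, at -0.30 (edgeR adjusted p = 0.317). *CREM*, whose products include the cAMP-induced repressor ICER, differed by 0.15 (standard error 0.15, edgeR adjusted p = 0.48). Counts are per gene, so that ICER was not read apart from other *CREM* transcripts. Of 11 immediate early and stress genes, 10 were tested, and 3 were higher (*JUNB*, *EGR2* and *ATF3*) and 4 lower (*FOS*, *FOSB*, *EGR1* and *IER2*), beside the same 17.5% and 13.8%. Their sum was 3885 and 3559 CPM on day 45, against 5212 to 7005 on the earlier days, but it follows abundant genes such as *FOS* and *EGR1* and not the list. From day 38 to day 45, 3 were higher (*FOSB*, *EGR2* and *ATF3*) and 4 lower, with a median of 0.45, beside 4.85% and 6.35% of all genes. From day 31 to day 38, 0 of the 10 were called in either direction. The part of the handling genes in the fall of *DUSP1* was not tested.

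The sorted cells carried thyroid genes throughout: the summed level of 6 thyroid markers ran from 1440 to 1839 CPM on days 16 to 31 and from 6312 to 9028 on the dexamethasone days, with *TG* at 65.8% of the total over all 10 libraries. The sum follows *TG*, which rose by 6.38, and does not stand for the list, whose median was -0.16. Of the 6 markers, 2 were higher (*TG* and *TSHR*, at 1.69) and 2 lower, beside 17.5% and 13.8% of all genes. *FOXE1*, a thyroid transcription factor, differed by -0.58 (edgeR adjusted p = 2.25e-06). *PAX8* differed by -0.09 (edgeR adjusted p = 0.403), and *NKX2-1*, the gene of the sort, differed by -0.37 (edgeR adjusted p = 0.00393). At the change of medium *NKX2-1* was at -0.10 (edgeR adjusted p = 0.735). At day 45 against 38 it fell by 1.199, *FOXE1* by 0.82 and *HHEX* by 0.86 (edgeR adjusted p = 6.3e-07, 4.01e-05 and 3.7e-05). The part of these falls in the day 45 values of the members was not tested. Markers of other cell types also differed between the groups of days, but not all at the change of medium. From day 31 to day 38 *COL1A2* rose by 2.67 and *ACTA2* by 3.84, while *DCN* differed by 0.09 and *KRT5* by 0.23 (edgeR adjusted p = 2.63e-16, 1.75e-05, 0.891 and 0.834). The goblet cell markers *MUC5AC* and *MUC5B* rose at that step by 4.43 and 2.41 (edgeR adjusted p = 2.8e-05 and 0.000651). *KRT5* had already risen between days 23 and 31 (edgeR adjusted p = 2.58e-06), and between days 38 and 45 *MUC5AC* fell by 4.30 (edgeR adjusted p = 6.24e-05). In the pooled comparison, with the same shares of all genes, of 3 fibroblast markers, 2 were higher and 0 lower, and their sum averaged 261 CPM before dexamethasone and 1163 with it, of which *COL1A2* was 89.4%. Of 2 cardiovascular markers both were higher, with sums of 4.06 and 28.5 CPM and *ACTA2* as the most abundant. Of 2 airway markers 1 was higher, at 10.4 and 30.4 CPM with *KRT5* leading, and of 3 goblet cell markers all were higher, at 2.85 and 61.3 CPM with *MUC5B* leading. No marker of these lists was at 0 in every library. The part of other cells in the differences was not tested, and in bulk samples fewer cells of a type and less RNA per cell cannot be told apart.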

How the data were processed

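Sorted cells of 10 samples gave low-input paired-end libraries. Per the labels and the study's methods, reads were trimmed (Trimmomatic), aligned to GRCh38 (HISAT2) and counted per gene (HTSeq, GRCh38.p13 annotation), and the authors deposited raw counts without normalization. Whether counting used strand is not given in the sources used here. Exons of the 10 genes shared at most 3.71% of their bases with another gene.

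The 21014 genes with 5 or more counts in 2 or more libraries were fitted by the quasi-likelihood method of edgeR 4.0.16 (R 4.3.3), with TMM factors from 0.896 to 1.071, one mean per day and 5 residual degrees of freedom. P-values were adjusted by Benjamini-Hochberg over all tested genes, with a threshold of 0.05. Standard errors were approximated from the fold change and its F statistic. The pooled comparison takes the mean of the 2 days against that of the other 3. Replicates differed by more than sampling noise (ratio of chi-square to degrees of freedom between 8.38 and 13.7).

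The members and lists were chosen with earlier results of these data known, and 1 listed gene is not reported here. Genes named are the members, the list genes and the 5 most correlated (log2 CPM, prior count 2) with *FKBP5* and with *NR3C1*. Positions and transcript lengths came from GENCODE, and promoters and start sites from RefSeq. Only 1 RefSeq start per gene was used, so that promoters of other starts were not examined. Alternatives were DESeq2 1.42.0, other scalings and filters, a replicate block, other day sets and leaving out each library.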

Additional observations from a re-analysis of the deposited data

How the results depend on the processing

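Over the alternatives and omitted libraries, 768 values of the 10 genes kept their direction and call, 32 gained a call, 35 lost it and 25 changed sign. The replicate numbers did not pair the libraries (correlations of their deviations from -0.029 to 0.014 over 10 pairs of days). With the number as a replicate block, 3 members were called higher at day 45 against 38 in place of 1, and 3 lower at day 23 against 16 in place of 1. In those comparisons all genes went from 1019 to 1151 higher and from 1120 to 1324 lower. With only 2 libraries a day, p-values rest on the spread shared by all days, and a lone library is assumed to vary like the others. Without TMM factors the median of all genes was -0.20 in place of 0.00 at day 38 against 31, and -0.135 in place of 0.02 in the pooled comparison.

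The 8 members higher in the pooled comparison became 5 and the 2 lower became 0 with day 38 as the only dexamethasone day (*NR3C1*, *ZBTB16*, *CRISPLD2*, *PER1* and *DUSP1* lost the call), where all genes went from 3687 to 2683 higher and from 2903 to 1581 lower. The number of members lower also moved without some single libraries. At day 45 against 38, the 1 member higher became 3 with DESeq2, library size alone, upper-quartile factors or only the 4 libraries. Among all genes, the 1019 higher became 1266, 1142, 1180 and 1633 (of 18932) with these. Without the low-count filter 2 members and 1103 of 24177 genes were higher. The member count also moved without some single libraries. The 1 lower there became 0 with library size alone or upper-quartile factors, where all genes lower went from 1334 to 1139 and 1129. It was also lost without some single libraries. At day 23 against 16, the 1 lower became 3 with DESeq2 or no filter and 0 with only the 4 libraries. Among all genes, the 1120 lower became 1281, 1256 (of 24177) and 923 (of 18613) with these. The member count also moved without some single libraries. At day 31 against 23, the 2 higher became 1 with filterByExpr or only the 4 libraries. Among all genes, the 333 higher became 292 (of 19069) and 230 (of 18542) with these. The member count also moved without some single libraries. The causes were not tested.

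Signs turned with scaling for *CRISPLD2* at day 38 against 31 (-0.052 on library size), *DUSP1* at day 31 against 23 (3e-04, 0.024 and 0.004 with DESeq2, library size and upper quartile) and *TSC22D3* at day 45 against 38 (0.0036, 0.013 and 0.019). Without single libraries, values at day 23 against 16 ranged from -1.01 to 0.10 for *FKBP5*, -0.16 to 0.46 for *KLF9* and -0.62 to 0.12 for *SGK1*. At day 31 against 23 they ranged from -1.02 to 0.90 for *CRISPLD2*, -0.063 to 0.063 for *DUSP1*, -0.032 to 0.64 for *FKBP5*, -0.002 to 0.26 for *NR3C1*, -0.059 to 0.56 for *PER1* and -1.24 to 0.0033 for *ZBTB16*. At day 38 against 31 they ranged from -0.51 to 1.40 for *CRISPLD2*, -0.14 to 0.0025 for *DUSP1* and -0.48 to 0.12 for *PER1*, and at day 45 against 38 from -0.12 to 0.44 for *KLF9* and -0.15 to 0.072 for *TSC22D3*.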
